A study of Mus musculus with 6 samples.

Results

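The chemokine genes Ccl1, Ccl3, Ccl4, Ccl5, Ccl6, Ccl9, Ccl22, Cxcl2 and Cxcl3 were followed in cultured group 2 innate lymphoid cells (ILC2s) of mouse lung. They were 9 of a list of 10 chemokines named for these cells, among 17438 genes in the deposited count table, and the other listed gene, Xcl1, was not analysed here. ILC2s are lymphocytes of barrier tissues that lack antigen receptors and release IL-5 and IL-13 when the alarm cytokine IL-33 reaches them. The Cd48 KO group (3 libraries, KO1 to KO3) carried the targeted allele B6.129S4-Cd48tm1Rsr/EpaulJ, and the WT group (3 libraries, WT1 to WT3) was wild type. Both groups were sorted lung ILC2s that received IL-33 and were then recovered from culture, and the strain field reads CB57BL/6 for both. The libraries were made from 10 pg of RNA each. The age of the mice is not given in the sources used here, nor whether the libraries came from separate animals, so the p-values measure only how far these samples spread, and that spread may be technical in part. The labels name no Cre or other restriction of the allele to ILC2s, and the allele's name gives a 129S4 donor strain. Duplicates are mentioned in the design text, but 3 samples per genotype were analysed.

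Chemokines are small secreted proteins that steer migrating leukocytes through G protein-coupled receptors, and they fall into the CC, CXC and C families by the spacing of their first cysteines. Cxcl2 and Cxcl3 draw neutrophils through the receptor CXCR2. Ccl3, Ccl4 and Ccl5 act on monocytes, T cells and other leukocytes, and Ccl3 and Ccl5 bind CCR1. Ccl6 and Ccl9 are mouse ligands of CCR1, Ccl22 binds CCR4 on type 2 helper T cells, regulatory T cells and ILC2s, and Ccl1 binds CCR8. Activated ILC2s release chemokines beside their cytokines, and most of these genes are also transcribed by macrophages. Markers of other cells are therefore given below, and the part of such cells in the chemokine levels was not tested.

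On GRCm38 (the build named mm10 in the submitters' processing notes), 6 of the 9 genes lay on chromosome 11, 2 on chromosome 5 and 1 on chromosome 8, and none shared a chromosome with Cd48. Cxcl3 (chromosome 5, 90786103 to 90789600, plus strand) and Cxcl2 (chromosome 5, 90903871 to 90905938, plus strand) were 114 kb apart. Ccl5, Ccl9, Ccl6, Ccl3 and Ccl4 lay together within 139 kb of chromosome 11. The promoters of the neutrophil chemokines Cxcl3 and Cxcl2, with that of their close relative Cxcl1 beside them, are shown because these 2 listed genes are neighbours on the same strand that differed greatly in transcript level. Each line gives the 250 bases before the RefSeq transcription start (GRCm38.p6, plus strand), and capitals mark matches to a κB-type motif, which reads GGGA, any base, then TTTCC. The windows are chr5:90785851-90786100 for Cxcl3, chr5:90903649-90903898 for Cxcl2 and chr5:90890995-90891244 for Cxcl1.
Cxcl3: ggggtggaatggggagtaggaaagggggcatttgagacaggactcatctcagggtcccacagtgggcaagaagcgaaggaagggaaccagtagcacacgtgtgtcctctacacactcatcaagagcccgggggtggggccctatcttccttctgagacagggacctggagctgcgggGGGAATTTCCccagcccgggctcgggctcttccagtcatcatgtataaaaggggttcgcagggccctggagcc
Cxcl2: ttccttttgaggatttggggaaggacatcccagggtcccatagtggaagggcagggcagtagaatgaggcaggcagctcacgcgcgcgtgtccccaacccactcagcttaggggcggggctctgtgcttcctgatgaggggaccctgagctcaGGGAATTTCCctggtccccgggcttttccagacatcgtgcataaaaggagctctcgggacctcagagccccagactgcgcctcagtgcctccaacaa
Cxcl1: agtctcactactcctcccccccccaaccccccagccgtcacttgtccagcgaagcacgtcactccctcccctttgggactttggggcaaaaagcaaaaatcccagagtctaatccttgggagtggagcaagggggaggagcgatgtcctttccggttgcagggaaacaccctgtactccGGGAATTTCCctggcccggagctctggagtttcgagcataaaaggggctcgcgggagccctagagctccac

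The same 10 letters stood 73 bases before the RefSeq start of Cxcl3, 97 bases before that of Cxcl2 and 71 bases before that of Cxcl1. The gene positions above are those of GENCODE, where Cxcl2 begins at 90903871, inside its window. The distance for Cxcl2 therefore depends on the start used. The motif was searched on both strands in every RefSeq promoter window of this length, and 117 of 32851 windows (0.356%) held it. RefSeq gave a window for 7 of the 9 chemokine genes, and the windows of Ccl1, Ccl3, Ccl6, Ccl9 and Ccl22 had no match to these letters. A match is a description of the sequence and not a test of binding.

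The targeted gene was read first as a check of the labels. Cd48, which encodes a GPI-anchored SLAM family receptor on leukocytes, stood at 4.52, 5.59 and 4.40 CPM (counts scaled to the library total) in KO1, KO2 and KO3, against 58.2, 46.6 and 41.6 CPM in WT1, WT2 and WT3. The log2 fold change (KO over WT) of Cd48 was -3.33 (SE 0.20, adjusted p 0.00285). Unless another method is named, adjusted p here and throughout come from edgeR's quasi-likelihood test, adjusted by the Benjamini-Hochberg (BH) method over all genes tested. Library totals ran from 16135210 to 17600475 counts in KO and from 14928623 to 27450400 counts in WT. All 13 ILC2 marker genes with a column were above 1 CPM in all 6 libraries, and they summed to between 12825 and 13609 CPM in KO and between 11224 and 15044 CPM in WT. WT1 stood apart from the rest. Its log2 CPM values correlated at r = 0.932 and 0.928 with WT2 and WT3 across genes, whereas all other replicate pairs within a genotype reached 0.985 to 0.988. Against the mean of WT2 and WT3, WT1 was higher by a median of 0.35 (log2) over 1004 genes with transcripts of 500 to 1000 bases and differed by a median of -0.95 over 604 genes with transcripts of at least 8000 bases. Among the chemokine genes of 500 to 1000 bases, Ccl3, Ccl4 and Ccl5 were instead lower in WT1 (-0.85, -4.52 and -2.12), and Ccl1 was higher (1.31). WT1 also had counts for fewer genes, 15306 against 16722 to 17004 in the other libraries. The tests of the chemokine genes are therefore given with and without WT1. In bulk RNA, fewer cells of a type and less RNA per cell cannot be told apart.

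Cxcl3 was by far the most abundant of these chemokine transcripts. It ranked 280 of 17438 genes by mean CPM. To compare genes, CPM was divided by transcript length in kilobases (RPKM). On that scale Cxcl3 had 486, 538 and 467 RPKM in KO1, KO2 and KO3, against 344, 557 and 456 RPKM in WT1, WT2 and WT3. The second gene was Cxcl2, with 7.10, 7.21 and 4.95 RPKM in the KO libraries, against 4.13, 6.61 and 6.06 RPKM in the WT libraries. In both genotypes Cxcl3 lay far above its genomic neighbour. The mean RPKM of Cxcl3 over the 6 libraries was 79.0 times that of Cxcl2, and the ratio was 68.6, 74.6 and 94.4 in KO1, KO2 and KO3, against 83.3, 84.3 and 75.2 in WT1, WT2 and WT3. The ratio depends on the transcript lengths used, 1.016 kb for Cxcl3 and 1.859 kb for Cxcl2. By mean CPM, Cxcl3 stood at 482 and Cxcl2 at 11.2. Among the 9 genes only Cxcl3 and Cxcl2 had counts that were not whole, so some of their reads may be shared. Cxcl3 made up 95.7, 95.9 and 97.2% of the summed RPKM of the 9 chemokine genes in the KO libraries, against 96.6, 94.0 and 94.9% in the WT libraries.

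The order by mean RPKM over all 6 libraries was Cxcl3 (475 ± 75.3, SD, n = 6), Cxcl2 (6.01 ± 1.24), Ccl5 (5.37 ± 3.33), Ccl3 (3.58 ± 1.18), Ccl4 (2.67 ± 1.55), Ccl6 (1.34 ± 0.862), Ccl9 (1.18 ± 0.799), Ccl22 (0.841 ± 1.81) and Ccl1 (0.664 ± 0.454). Cxcl3 and Cxcl2 were the only neighbours in this order whose ranges over the libraries did not overlap. Every pair of neighbours from Cxcl2 down to Ccl1 overlapped, so no step between neighbours among those 8 genes goes beyond their spread. Farther apart in the order, the ranges of Cxcl2 (4.13 to 7.21 RPKM) and Ccl3 (2.46 to 5.40 RPKM) lay wholly above those of Ccl6 (0.118 to 2.44 RPKM), Ccl9 (0.418 to 2.44 RPKM) and Ccl1 (0.294 to 1.49 RPKM). By mean CPM, 2 of the 9 genes (Cxcl3 and Cxcl2) reached 10 CPM and 7 did not.

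**Figure D1:**
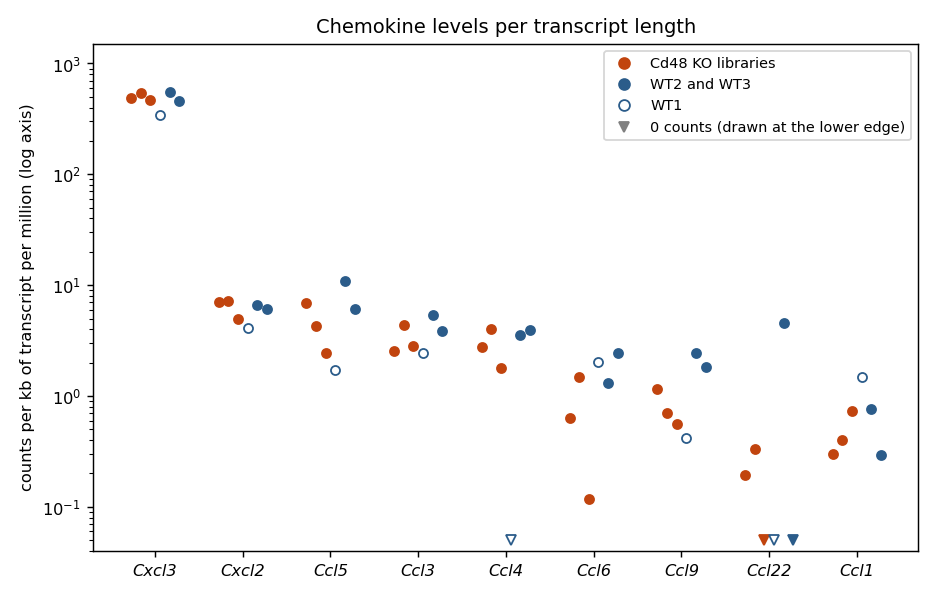
Level of each chemokine gene in each library as RPKM on a log axis, with Cd48 KO and WT libraries as separate points WT1 as an open symbol and 0 counts as triangles at the lower edge. Cxcl3 sits between 344 and 557 RPKM in all 6 libraries, and the other genes lie at or below 10.8 RPKM, each overlapping its neighbours in the order.

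Set between the genotypes, no chemokine gene passed the test with all 6 libraries. The low-count filter kept 7 of the 9 genes (Cxcl3, Cxcl2, Ccl3, Ccl4, Ccl5, Ccl6 and Ccl9), and 0 of these 7 were called at an adjusted p under 0.05 in edgeR, against 0.0300% of all 13317 tested genes. The share of all genes called lower in KO was 0.0150%. At an unadjusted p under 0.05 there were also 0 of the 7. DESeq2 called 0 of the chemokines, against 0.726% of all genes it tested, and limma-voom with quality weights called 0, against 0.713%. In 0 of the 7 were all KO libraries below all WT libraries, where 9.11% of all tested genes were. The log2 fold change (KO over WT) was positive for 3 and negative for 4, with a median of -0.26 beside 0.00 over all tested genes. Without WT1, 8 were tested because Ccl22 then passed the filter. Of these 1 was called lower in KO, Ccl9, against 1.82% of 13643 tested genes called in either direction and 0.652% called lower. DESeq2 and limma-voom also called Ccl9 and no other chemokine without WT1, against 2.81% and 1.60% of all genes they tested. The fold change was then negative for 7 of 8 chemokine genes, beside 49.8% of all tested genes, and the median was -0.68. WT1 was the lowest of all 6 libraries for Ccl3, Ccl4, Ccl5, Ccl9, Cxcl2 and Cxcl3. Their WT mean thus rose when WT1 was left out. The 7 also include Cxcl3 at -0.02 and Ccl22, whose value rested on WT2. The count of signs is therefore not support for a shared fall.

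**Figure D2:**
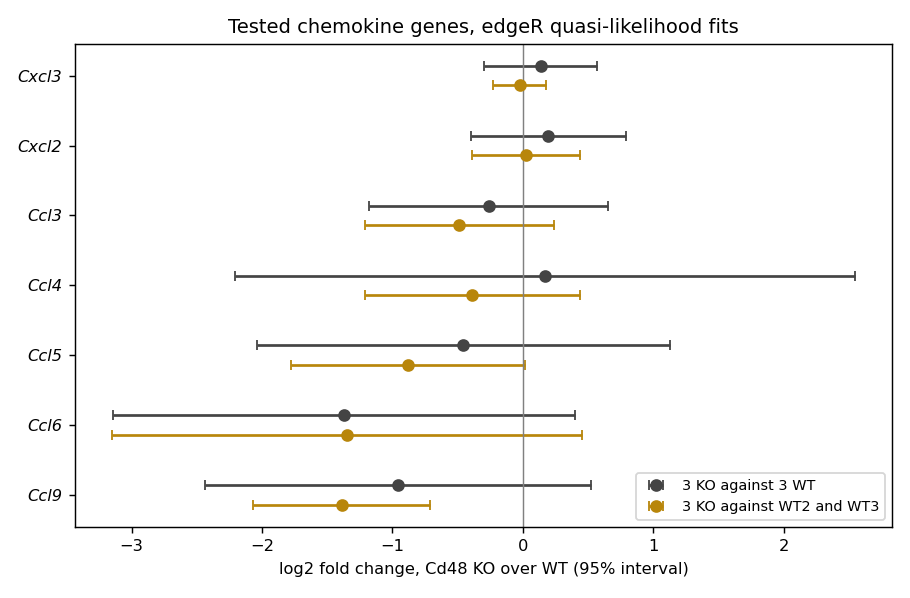
Log2 fold change of the 7 chemokine genes tested with all 6 libraries, Cd48 KO over WT, with 95% intervals from edgeR, once for 3 KO against 3 WT libraries and once without WT1. The intervals of Cxcl3 are the narrowest and include 0, and the Ccl9 interval without WT1 (-2.07 to -0.71) is the only one that leaves out 0.

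The neutrophil attractants gave the most precise comparison. Cxcl3 stood at 494, 547 and 475 CPM in KO1, KO2 and KO3, against 349.6, 566 and 463 CPM in WT1, WT2 and WT3, on 5007 to 12910 counts per library. WT1 was the lowest library and WT2 the highest, so the WT values enclosed all 3 KO values. The means were 505 ± 37.1 CPM in KO and 459.6 ± 108 CPM in WT (SD, n = 3 each). The fold was 1.10 (95% interval 0.812 to 1.49, edgeR adjusted p 0.782). Without WT1 the fold was 0.985, with an interval of 0.855 to 1.13 and an adjusted p of 0.953. Cxcl2 stood at 13.2, 13.4 and 9.20 CPM in KO, against 7.68, 12.3 and 11.3 CPM in WT. KO3 lay among the WT values, and WT1 was again the lowest. The log2 fold change of Cxcl2 was 0.19 (SE 0.25, adjusted p 0.773) and, without WT1, 0.02 (SE 0.19, adjusted p 0.981).

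Ccl3, Ccl4 and Ccl5 were low, with at most 91 counts in a library, and did not separate the genotypes. Ccl3, also called MIP-1α, stood at 1.95, 3.38 and 2.14 CPM in KO, against 1.89, 4.14 and 2.94 CPM in WT. Ccl4, also called MIP-1β, lies 13.2 kb from Ccl3 and stood at 1.83, 2.64 and 1.19 CPM in KO, against 0, 2.34 and 2.58 CPM in WT. Ccl5, also called RANTES, stood at 3.66, 2.27 and 1.30 CPM in KO, against 0.908, 5.74 and 3.27 CPM in WT. In each of the 3 genes WT1 was the lowest of all 6 libraries, and the genotypes overlapped. WT1 had 0 counts of Ccl4, which allows a level of up to 0.209 CPM (3 counts in that library, counting error only). With all 6 libraries the log2 fold change was -0.26 (SE 0.38) for Ccl3, 0.17 (SE 1.0) for Ccl4 and -0.46 (SE 0.67) for Ccl5, with adjusted p of 0.798, 0.948 and 0.797. Without WT1 the values were -0.49 (SE 0.33), -0.39 (SE 0.38) and -0.88 (SE 0.41), with adjusted p of 0.583, 0.735 and 0.377. The sign of Ccl4 thus changed without WT1, and it also changed without KO2 (-0.14).

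Ccl9, also called MIP-1γ, was lower in KO than in WT2 and WT3 but not lower than in WT1. It stood at 3.48, 2.09 and 1.69 CPM in KO1, KO2 and KO3 (57, 34 and 30 counts), against 1.26, 7.34 and 5.46 CPM in WT1, WT2 and WT3 (18, 110 and 152 counts). The means were 2.42 ± 0.939 CPM in KO and 4.69 ± 3.12 CPM in WT (SD, n = 3 each). WT2 and WT3 lay above all KO libraries and WT1 lay below them. The log2 fold change was -0.96 (SE 0.62, edgeR adjusted p 0.693) with all 6 libraries. Without WT1 Ccl9 fell, with a log2 fold change of -1.39 (SE 0.31, adjusted p 0.0441), to 0.381 times the level of WT2 and WT3. It was then the 1 chemokine gene of 8 whose groups did not overlap, beside 14.3% of all tested genes that lay lower in KO without overlap. The call was lost when KO2, KO3, WT2 or WT3 was left out as well, with adjusted p of 0.188, 0.199, 0.224 and 0.0748, and was kept without KO1 (0.0166).

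Ccl6 (chromosome 11, 83587882 to 83593087, minus strand) lies 9.24 kb from Ccl9 (83572919 to 83578636, minus strand). Ccl6 stood at 0.916, 2.15 and 0.169 CPM in KO1, KO2 and KO3, against 2.93, 1.87 and 3.52 CPM in WT1, WT2 and WT3. KO2 lay above WT2, and KO1 and KO3 lay below all WT libraries. KO3 had 3 counts of Ccl6. The means were 1.08 ± 1.0 CPM in KO and 2.77 ± 0.836 CPM in WT (SD, n = 3 each). The log2 fold change was -1.37 (SE 0.74, 95% interval -3.14 to 0.40, adjusted p 0.690), and without WT1 it was -1.35 (SE 0.76, adjusted p 0.514). Ccl6 overlaps E230016K23Rik on the opposite strand, and whether reads were counted by strand is not given in the sources used here, so reads of the 2 genes cannot be told apart.

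**Figure D3:**
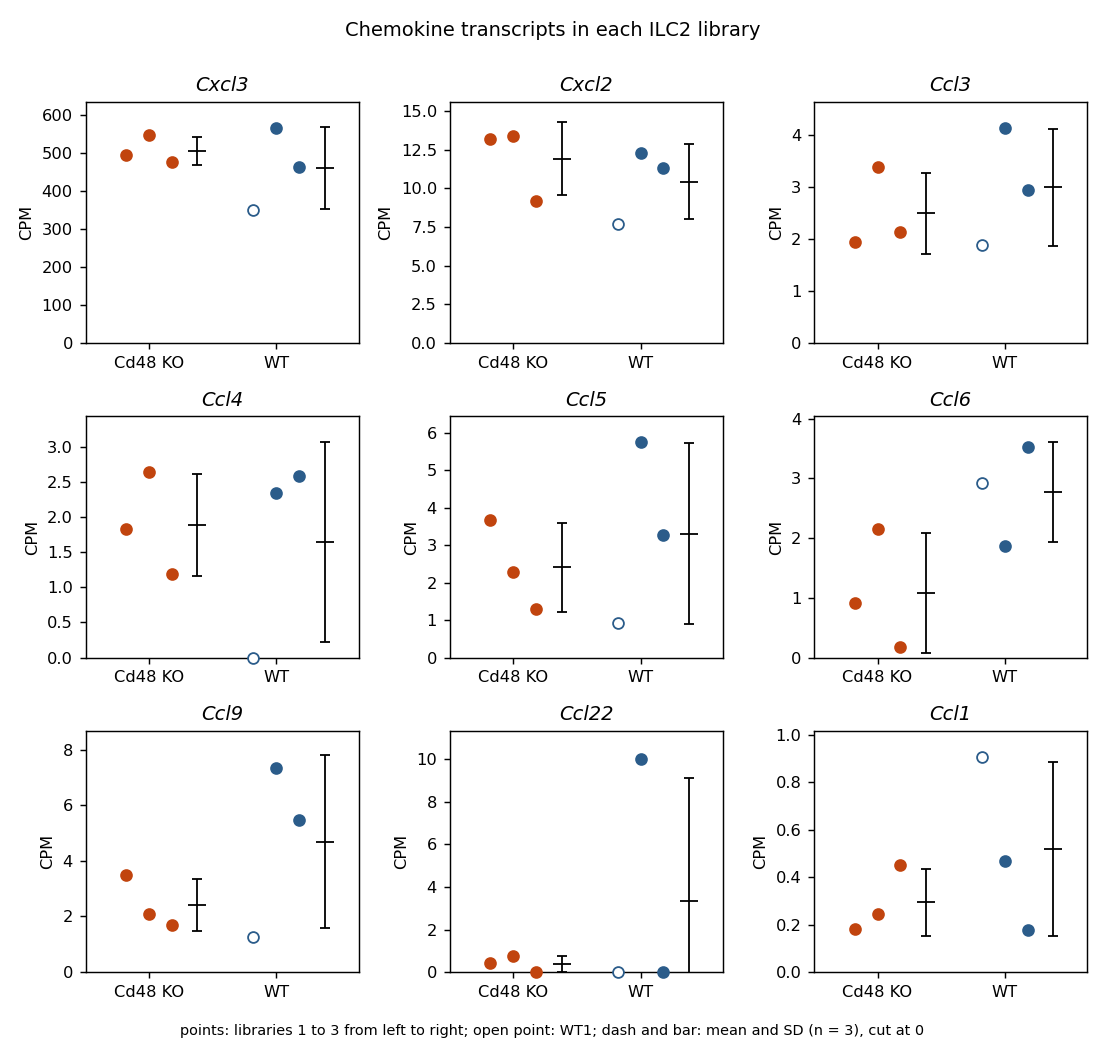
CPM of the 9 chemokine genes in each library, with Cd48 KO left of WT in every panel, libraries 1 to 3 from left to right, WT1 as an open point, and a dash and bar for the mean and SD (n = 3). Cxcl3 lies between 349.6 and 566 CPM in all libraries, Ccl9 of WT1 (1.26 CPM) lies below the KO points, and the Ccl22 level of WT comes from WT2 (10.0 CPM).

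The macrophage and monocyte marker sum, like Ccl9, was highest in WT2 and WT3. The 8 of 10 markers with a column summed to 75.9, 122 and 10.4 CPM in KO1, KO2 and KO3, against 50.6, 129 and 239 CPM in WT1, WT2 and WT3. Most of this sum was Chil3, a chitinase-like protein of alveolar macrophages, at 67.8, 113 and 8.58 CPM in KO, against 45.5, 108 and 214 CPM in WT. Lyz2, the myeloid lysozyme, was at 1.47, 5.66 and 0.621 CPM in KO, against 1.68, 14 and 16.8 CPM in WT. Lyz2 thus had WT2 and WT3 above the KO libraries, as Ccl9 did, whereas Chil3 overlapped. Of the defining markers, Mrc1, C1qa, C1qb and Cd14 also had WT2 and WT3 above all KO libraries and above WT1, and Csf1r and Adgre1 did not. Mrc1, C1qa and C1qb had at most 21 counts in a library. The mannose receptor gene Mrc1 had 0 counts in all KO libraries and in WT1, and 0.134 and 0.754 CPM in WT2 and WT3. The complement gene C1qa was at 0, 0 and 0.0564 CPM in KO, against 0, 0.534 and 0.179 CPM in WT. Its partner C1qb was at 0.122, 0 and 0 CPM in KO, against 0, 1.07 and 0.574 CPM in WT. Csf1r, the receptor of the macrophage growth factor, was at 3.85, 0.922 and 0.169 CPM in KO1, KO2 and KO3, against 0, 2.40 and 2.05 CPM in WT1, WT2 and WT3, and was highest in KO1. Adgre1, which encodes the F4/80 antigen, was at 0.672, 0.799 and 0.677 CPM in KO, against 2.03, 1.0 and 0 CPM in WT, and was highest in WT1. Cd14, the co-receptor for bacterial lipopolysaccharide, was at 2.02, 1.66 and 0.339 CPM in KO, against 1.47, 2.14 and 4.27 CPM in WT. Of the 5 macrophage markers tested, 0 were called in either fit, and the median log2 fold change was -0.96 (without WT1, -1.29). The part of other cells in the Ccl9 and Ccl6 values was not tested.

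The epithelial marker sum was lower in every KO library than in every WT library, as 9.11% of all single genes tested were. The 7 markers summed to 14.5, 10.0 and 23.8 CPM in KO1, KO2 and KO3, against 31.4, 72.8 and 69.3 CPM in WT1, WT2 and WT3, and Epcam, the epithelial adhesion molecule, fell in the fit without WT1 (log2 fold change -0.83, SE 0.18, adjusted p 0.0347) but was not called with all 6 libraries (-0.82, adjusted p 0.659). Beside WT1, leaving out KO2, KO3, WT2 or WT3 ended the Epcam call, with adjusted p from 0.0734 to 0.192. Sftpc, the surfactant protein gene of type II alveolar cells, was at 0.489, 0.246 and 0 CPM in KO, against 0, 23.3 and 2.05 CPM in WT. Scgb1a1, which made up most of the WT3 sum, was at 0, 0.184 and 12.9 CPM in KO, against 1.82, 19.0 and 47.2 CPM in WT. The genotypes overlapped for Sftpc and Scgb1a1. Krt8 had 0 counts in all KO libraries, against 5.17, 5.01 and 0.287 CPM in WT, and was not tested. WT2 had the highest Sftpc and also the highest Cxcl3, Ccl3, Ccl5, Ccl9 and Ccl22. The T cell markers, of which 4 of 8 had a column, summed to between 4.0 and 5.98 CPM in KO and between 2.86 and 5.96 CPM in WT. The markers with a column for NK cells and ILC1s (2 of 7), neutrophils (1 of 5) and B cells (1 of 4) stayed at or below 1.17 CPM in sum in every library. Those for ILC3s (2 of 4) reached 1.13 CPM, and those for mast cells, basophils and eosinophils (1 of 8) 1.47 CPM. The endothelial and fibroblast markers (2 of 8) summed to 40.1, 41.9 and 41.3 CPM in KO, against 29.1, 40.2 and 38.1 CPM in WT. Nearly all of that sum was Pecam1.

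**Figure D4:**
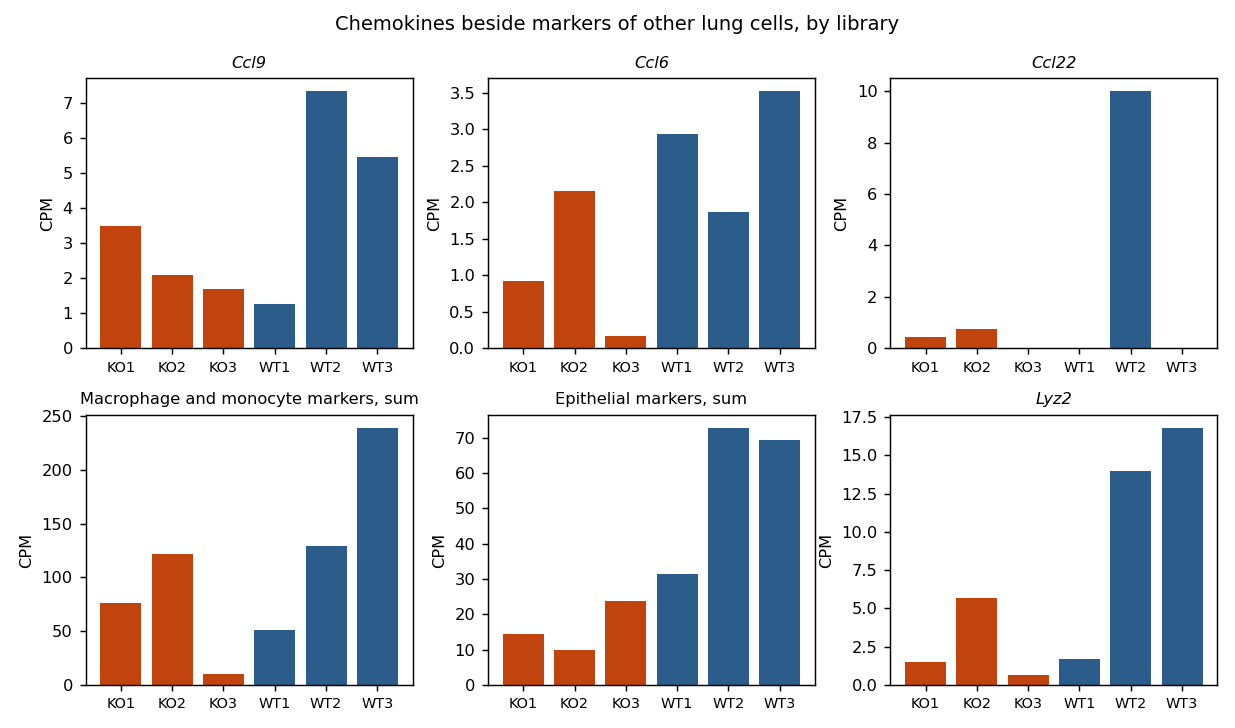
Bars give the CPM of Ccl9, Ccl6 and Ccl22 in each library above the summed CPM of the macrophage and monocyte markers, that of the epithelial markers and the CPM of Lyz2, with the 3 Cd48 KO libraries left of the 3 WT libraries. The macrophage sum lies between 10.4 CPM (KO3) and 239 CPM (WT3) and the epithelial sum between 10.0 CPM (KO2) and 72.8 CPM (WT2), and WT2 and WT3 hold the 2 highest values of Ccl9, Lyz2 and both sums.

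Ccl22 and Ccl1, ligands of CCR4 and CCR8, did not pass the low-count filter with all 6 libraries. Without that filter their log2 fold changes were -0.74 for Ccl1 (adjusted p 0.795) and -3.07 for Ccl22 (adjusted p 0.754). Ccl22 (chromosome 8, 94745590 to 94751699, plus strand) stood at 0.427, 0.738 and 0 CPM in KO, against 0, 10.0 and 0 CPM in WT. All 150 WT counts came from WT2, whereas the KO libraries held 7, 12 and 0 counts. The limit that 0 counts allow was 0.169 CPM in KO3, against 0.209 CPM in WT1 and 0.108 CPM in WT3. Without WT1 Ccl22 was tested, with a log2 fold change of -3.63 (SE 2.36, adjusted p 0.633) that rested on WT2. Limma-voom without WT1 gave 0.10 (adjusted p 0.988), and without WT2 as well the only WT library left, WT3, had 0 counts. The dendritic cell markers, of which 4 of 7 had a column, summed to 52.3, 51.7 and 58.3 CPM in KO, against 67.2, 60.9 and 58.4 CPM in WT. Most of the sum was Xcr1, whereas Zbtb46, Itgax and Flt3 reached at most 2.14, 1.18 and 0.251 CPM in any library. The sum thus mainly describes Xcr1, and the part of dendritic cells in the Ccl22 value was not tested. Ccl1 had 3, 4 and 8 counts in KO (0.183, 0.246 and 0.452 CPM), against 13, 7 and 5 counts in WT (0.908, 0.467 and 0.179 CPM). The genotypes overlapped for Ccl1, and at these counts a difference was not detectable.

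Of the receptors for these ligands, 4 (Ccr8, Ccr4, Xcr1 and Ccr1) had a higher mean RPKM than any of the ligands except Cxcl3. Of 6 receptors listed, 5 had a column, all 5 were tested and 0 were called in either fit, and the median log2 fold change was 0.03 (without WT1, 0.08). Ccr8, the Ccl1 receptor, was the highest per length at 107 ± 6.71 RPKM over the 6 libraries (SD, n = 6), where its ligand Ccl1 had 0.664 ± 0.454 RPKM. Ccr8 stood at 128, 128 and 130.1 CPM in KO, against 110.1, 128 and 131 CPM in WT. Ccr4, the Ccl22 receptor, stood at 91.7, 95.3 and 82.9 CPM in KO, against 41.4, 87.4 and 79.4 CPM in WT, where WT1 was again the lowest. Ccr1, shared by Ccl3, Ccl5, Ccl6 and Ccl9, stood at 34.2, 39.1 and 35.4 CPM in KO, against 38, 31.8 and 36.5 CPM in WT. The genotypes overlapped for all 3 of these receptors. Xcr1, the receptor of Xcl1, stood at 50, 50.4 and 56.3 CPM in KO, against 65.8, 57.8 and 55.6 CPM in WT, and Ccr3, the eosinophil receptor that Ccl5 also binds, stood between 1.78 and 3.27 CPM in KO and between 1.34 and 7.12 CPM in WT. Cxcr2, the receptor of Cxcl2 and Cxcl3, was not analysed here.

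Of 31 other chemokine ligands listed, 13 had a column. With all 6 libraries 8 were tested and 0 were called, and the median log2 fold change was 0.05 (without WT1, -0.37 over 10 tested). Ccl25, which attracts thymocytes and gut-homing lymphocytes, was the most abundant at 10.1, 10.0 and 10.9 CPM in KO, against 7.68, 8.21 and 7.11 CPM in WT. All KO libraries lay above all WT libraries, but the log2 fold change of 0.43 (SE 0.17) had an adjusted p of 0.690 (without WT1, 0.44 and 0.304), and 19.3% of all tested genes had groups that did not overlap in either direction. Cxcl16, the ligand of CXCR6, stood at 2.56, 1.97 and 1.98 CPM in KO, against 0.489, 1.47 and 3.16 CPM in WT. Cxcl5, another neutrophil attractant, stood at 2.32, 1.91 and 1.35 CPM in KO, against 1.61, 2.0 and 1.47 CPM in WT. Ccl21b, whose reads may be shared with near-identical Ccl21 copies, stood at 1.04, 0.123 and 0.113 CPM in KO, against 3.07, 0 and 4.59 CPM in WT. None of these last 3 separated the genotypes.

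Without WT1, 10 of these other ligands were tested and 1 was called, Cxcl15, which lung epithelium makes. In that fit 1.82% of all tested genes were called, 0.652% as lower. Cxcl15 had 0 counts in every KO library and in WT1, against 1.0 and 0.718 CPM (15 and 20 counts) in WT2 and WT3 (adjusted p 0.0257). With all 6 libraries it did not pass the low-count filter and was not tested. Without WT1 it passed only through WT2 and WT3, so it could only come out lower in KO. The call is therefore not support for a fall. Set against 3 counts over the KO group, KO was at least 14.4-fold below the mean of WT2 and WT3, if that mean is taken as exact. The bound against all 3 WT libraries was 9.62-fold. Its adjusted p ran from 0.0348 to 0.137 when a further library was left out, and it was called in 1 of those 5 fits. The epithelial marker sums given above were also lowest in KO1 and KO2 and highest in WT2 and WT3, and their part in the Cxcl15 value was not tested.

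Among 11 other chemokine receptors listed, 7 had a column and 5 were tested. With all 6 libraries 0 were called. Without WT1 1 of the 5 was called, Ccr2, which fell, beside 0.652% of all tested genes called lower. Ccr2, the receptor for monocyte chemoattractants, stood at 211, 214 and 203 CPM in KO, against 208, 285 and 299.6 CPM in WT. WT1 lay within the KO range. The log2 fold change was -0.48 (SE 0.06, adjusted p 0.00199) without WT1 and -0.33 (SE 0.16, adjusted p 0.690) with it. Ccr2 was called in all 5 fits that left out a further library, with adjusted p between 0.00600 and 0.0212. Of the genes for chemokine processing and storage, 7 of 9 were tested and 0 were called in either fit. In the same fit without WT1, the ILC2 markers Il2ra and Il5 rose by 0.31 (SE 0.06, adjusted p 0.0200) and 0.29 (SE 0.06, adjusted p 0.0332) on the log2 scale, 2 of 13 markers tested, where 1.82% of all tested genes were called in that fit. With all 6 libraries the values were 0.32 (adjusted p 0.690) and -0.02 (adjusted p 0.977), and 0 of the 13 were called. When a further library was left out beside WT1, Il2ra kept its call without KO1 or WT3, with adjusted p up to 0.168 otherwise, and Il5 without KO1 or WT2, with adjusted p up to 0.195 otherwise.

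Likeness of pattern was measured as the root mean square distance between log2 CPM profiles centred on their own mean over the 6 libraries, among the 8675 genes that averaged 10 CPM or more. The gene most like Cxcl3 was Mau2, a cohesin loader subunit, at a distance of 0.049, where the median over all genes was 0.30. The gene most like Cxcl2 was the annotated transcript AC113595.1, at 0.048, where the median was 0.35. Cxcl3 and Cxcl2 lay 0.15 apart, which placed Cxcl3 at rank 106 among the genes nearest to Cxcl2 and Cxcl2 at rank 749 among those nearest to Cxcl3. All 6 points of each profile share their libraries, so these distances describe the libraries and carry no test.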

How the data were processed

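Per the labels' protocols, RNA of cultured ILC2s was column-extracted and made into cDNA with a SMARTer ultra low input kit. Tools named in the submitters' processing notes are Partek 10.0, STAR 2.7.8 and DESeq2, with mm10 as the build. No source used here names the gene counter or the strand setting. For all 6 samples, the authors deposited a table of estimated counts, as its values show: 60.2% of non-zero values are whole within 0.001. They were rounded to whole numbers. Near relatives among chemokines may share reads. Samples were grouped by their titles.

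All genes were fitted in R 4.3.3 with edgeR 4.0.16 (robust quasi-likelihood, TMM, filterByExpr with minimum count 10 and minimum total 15, genotype as the term, two-sided), with Benjamini-Hochberg adjustment and calls at an adjusted p under 0.05. The same fit was run without WT1. SE is the size of the log2 fold change divided by the root of F. CPM uses TMM library sizes. RPKM divides CPM by the longest protein-coding transcript (GENCODE vM21, GRCm38), and 17022 of 17438 symbols (97.6%) matched that annotation. Bounds for 0 counts use 3 counts per library, or over the group for a fold, where the WT mean is taken as exact. They cover counting error of the 0 counts only, since PCR copies of 1 molecule cannot be recognised. The 95% intervals come from the fit. No replicate pair agreed within sampling noise (chi-square per gene 5.51 to 154).

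The named genes are the listed chemokines, up to 6 called genes of each other list, the 4 other ligands with the highest mean CPM, the gene nearest in profile to each chemokine that averages 10 CPM or more, and markers at 0. Receptors and the cell type markers above 0 were named after their values were seen. The members, lists and tests were chosen with earlier results of these data known. The fits were tested on simulated counts that gave all libraries the same spread, whereas WT1 stood apart in the data. With all 6 libraries, 2% of 1.5-fold and 26% of 2-fold changes were recovered, with 8 false calls. Without WT1, 44% and 78% were recovered, with 26 false calls. Alternatives were RLE size factors, no filter, a mean of 10 CPM or more, DESeq2 1.42.0, limma-voom with quality weights (limma 3.58.1), the replicate number as a block, a length trend (lowess, span 0.3), counts not rounded, each library left out, and several of these without WT1. Log2 CPM used a prior count of 2.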

Additional observations from a re-analysis of the deposited data

How the results depend on the processing

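With all 6 libraries edgeR called 4 genes, and 0 of the chemokines. Counts of all called genes moved to 102 with DESeq2 and 95 with limma-voom with quality weights, ran from 0 (without KO1, 662 at an unadjusted p under 0.05, and without KO3, 335) to 248 (without WT1) when 1 library was left out, and came to 517, 73, 65, 89 and 141 without WT1 and KO1, KO2, KO3, WT2 or WT3. Without WT1 they were 413 with DESeq2, 218 with limma-voom and 250 with the length trend. Called chemokines ran from 0 to 1 over the libraries left out: Ccl9 was called without WT1, without WT1 and KO1, and without WT1 with DESeq2, limma-voom and the length trend (1 each). Its log2 fold change without WT1 was no longer called without KO2 (-1.30), KO3 (-1.19), WT2 (-1.18) or WT3 (-1.61), and ran from -1.74 to -1.18. The cause of these shifts was not tested.

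Of 157 alternatives to the fold changes of the 7 chemokines tested with all 6 libraries (and of Ccl9 without WT1), 126 kept direction and call, 22 changed sign, 5 gained and 4 lost a call. Leaving out 1 library gave log2 ranges of -0.54 to 0.036 for Ccl3, -0.39 to 0.68 for Ccl4, -0.89 to 0.17 for Ccl5, -2.36 to -0.86 for Ccl6, -1.39 to -0.50 for Ccl9, 0.023 to 0.35 for Cxcl2 and -0.022 to 0.32 for Cxcl3. Signs changed without WT2 for Ccl3 (0.036) and Ccl5 (0.17). Ccl4 turned to -0.25 with limma-voom, -0.14 without KO2 and -0.39 without WT1. Leaving out WT1 with KO1, KO2, KO3, WT2 or WT3 gave Ccl4 -0.37, -0.71, -0.15, -0.46 and -0.32, and DESeq2, limma-voom and the length trend without WT1 gave -0.39, -0.41 and -0.31. Cxcl2 turned to -0.050, -0.073 and -0.047 without WT1 and KO1, KO2 or WT3. Cxcl3 turned to -0.015 with limma-voom, -0.022 without WT1, -0.0018, -0.086 and -0.17 without WT1 and KO1, KO2 or WT3, and -0.024 with DESeq2 without WT1. No chemokine was called with its sign changed. Ccl22 is not among these: without WT1 it was -3.63, and it turned to 0.10 with limma-voom and to 5.93 without WT2 as well, a fitted value against a WT3 library at 0 counts and no bound.

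With the replicate number as a block 0 genes were called by edgeR (776 at an unadjusted p under 0.05), and 0 chemokines, with log2 fold changes from -1.70 (Ccl6) to 0.66 (Ccl4). Same-numbered libraries did not deviate together (r of -0.046, -0.036 and -0.009), and WT1, WT2 and WT3 matched KO3, KO1 and KO1 best, so the numbers were not read as pairs. Depth limits Ccl1, Ccl22 and the CC chemokines, which had at most 152 counts in a library.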
